A study of Mus musculus with 7 samples.

Results

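A set of 10 genes of the monocyte lineage, namely F13a1, Ly86, Csf1r, Irf8, Lyz2, Ccr2, Fcgr3, Clec12a, Plac8 and Igsf6, was examined in mouse bone marrow cells with and without Lkb1. The set was chosen by earlier results on the same arrays (KO-minus-WT differences in signal), so its members' differences are a description and carry no test. All probe sets whose single gene symbol in the platform annotation was a listed gene were taken. This gave 14 probe sets for 9 of the 10 genes, out of 22690 probe sets on the array, and no probe set carried Clec12a as its single symbol. All 9 genes had a probe set bright enough to be tested, and 12 of the 14 probe sets passed that filter.

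The 2 groups were 4 Lkb1 KO samples, numbered 4 to 7, and 3 Lkb1 WT samples, numbered 5 to 7. KO mice were Lkb1 L/L with rosa26CreERT2, a Cre recombinase that sits at the Rosa26 locus and acts once tamoxifen is given, and WT mice were Lkb1 L/L without Cre, so both groups carried the floxed alleles and Cre was present in KO mice only. The mice were C57BL/Ka-CD45.2:Thy-1.1 and all received tamoxifen for 5 days, and marrow of the femur and tibia was taken 1 day later. Their age is not given beyond adult. Each sample was 15000 to 20000 sorted LSK cells (Lin-, Sca-1+, c-Kit+), the gate that holds blood stem cells and early progenitors, and about 10 ng of RNA was amplified before labelling. The labels call the samples replicates and do not say that each was a separate mouse, so a p-value here reflects spread that may be technical. Rosa26 is active in many cell types and not in blood cells alone.

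Monocytes arise from multipotent progenitors through granulocyte-monocyte and then monocyte-restricted progenitors. The transcription factor IRF8 directs progenitors toward monocytes and dendritic cells and away from neutrophils, and CSF1R, the receptor for CSF1 and IL-34, carries the main growth and survival signal of the lineage. Maturing monocytes then express lysozyme, Fc receptors, the chemokine receptor CCR2 that lets them leave the marrow, and coagulation factor XIII.

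F13a1 and Ly86 are neighbours on chromosome 13 and had the largest increases in the set, and Lyz2, on chromosome 10, was the member with the largest decrease. Their promoters are shown because these 3 genes carry the differences described below. Each window runs from 250 bases before to 50 bases after a start site, 5′ to 3′ on the gene's own strand, from RefSeq on GRCm38.p6. Capitals mark GGAAGT or its complement ACTTCC, the core of PU.1 sites. F13a1 has 2 annotated starts, at chr13:37050195-37050494 and chr13:37049164-37049463, both on the minus strand. The Ly86 window is chr13:37345095-37345394 on the plus strand, and the Lyz2 window is chr10:117282223-117282522 on the minus strand.
F13a1, first start: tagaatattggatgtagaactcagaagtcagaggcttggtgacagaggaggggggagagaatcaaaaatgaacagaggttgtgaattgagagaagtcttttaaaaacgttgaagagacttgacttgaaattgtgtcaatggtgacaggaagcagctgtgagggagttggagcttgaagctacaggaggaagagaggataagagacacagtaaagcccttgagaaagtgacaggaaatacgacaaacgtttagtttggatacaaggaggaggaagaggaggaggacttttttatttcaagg
F13a1, second start: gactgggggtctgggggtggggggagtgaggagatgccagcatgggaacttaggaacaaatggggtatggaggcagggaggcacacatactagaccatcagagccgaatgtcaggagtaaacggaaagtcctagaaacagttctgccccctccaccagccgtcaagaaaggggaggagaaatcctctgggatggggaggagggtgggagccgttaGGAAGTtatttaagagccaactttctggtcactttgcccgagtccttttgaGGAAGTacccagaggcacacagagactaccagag
Ly86: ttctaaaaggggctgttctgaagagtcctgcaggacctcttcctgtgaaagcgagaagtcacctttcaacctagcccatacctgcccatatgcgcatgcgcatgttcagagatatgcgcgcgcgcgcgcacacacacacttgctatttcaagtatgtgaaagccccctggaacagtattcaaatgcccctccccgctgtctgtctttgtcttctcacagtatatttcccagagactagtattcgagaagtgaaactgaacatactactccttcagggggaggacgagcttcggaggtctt
Lyz2: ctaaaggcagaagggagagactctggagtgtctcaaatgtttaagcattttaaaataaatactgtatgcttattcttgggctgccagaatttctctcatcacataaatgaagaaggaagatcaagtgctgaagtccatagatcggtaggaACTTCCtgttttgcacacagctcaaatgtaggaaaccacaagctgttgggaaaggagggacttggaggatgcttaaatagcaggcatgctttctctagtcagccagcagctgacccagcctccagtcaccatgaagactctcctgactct

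The second F13a1 window holds GGAAGT at 2 places, with first bases 35 bases before and 17 bases after the start, and the Lyz2 window holds it once on the other strand. The first F13a1 window and the Ly86 window hold no match. RefSeq promoters were at hand for 9 of the 10 genes (13 windows), Csf1r being the exception, and both strands were searched. GGAAGT occurred in 2 of these 9 genes, F13a1 and Lyz2, and in 26.5% of all 27025 genes with a promoter. TTGCNNAA, a form of the C/EBP site, occurred in 3 of the 9 (Clec12a, Fcgr3 and Plac8) and in 12.2% of all genes. The ETS-IRF composite motif and the doubled IRF motif, searched by their consensus letters, occurred in none of the 9, and in 3.16% and 3.99% of all genes. A match is a string of letters and not a measured binding site.

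The table gives 1 linear signal intensity per probe set and array. The arrays differed in overall brightness: the mean signal after trimming 2% at each end was 362.5 to 428 on KO arrays and 230.3 to 342.4 on WT arrays, with WT 7 the dimmest. The Actb 3′ to 5′ signal ratio, a sign of RNA quality, also did not overlap, at 11.41 to 12.29 on KO arrays and 12.6 to 13.11 on WT arrays, and its part in the results cannot be told apart from genotype across these groups. Deposited signals are given below as they stand, and differences are on log2(signal + 16) after quantile normalization of the 7 arrays, as KO minus WT with the SE of the limma fit. Among 8077 genes tested, 200 were higher and 239 lower in KO cells at an adjusted p of 0.05 (limma, Benjamini-Hochberg). The median of all genes was -0.02. At an unadjusted p of 0.05, 2046 of the 8077 genes passed (limma), and the unadjusted counts of single lists below stand beside that share. Stk11, which encodes LKB1, had deposited signals of 162.5, 123.4, 91.2 and 74.1 on the KO arrays and 187.3, 115.2 and 99.3 on the WT arrays for its brighter probe set, a difference of -0.56 ± 0.19 (adjusted p = 0.117, limma) with overlapping groups. The dimmer Stk11 probe set was below the brightness filter. It read 38.3, 57.9, 28.5 and 5.9 on the KO arrays, against 3.4, 5.1 and 19.4 on the WT arrays. Its difference was 0.70, in the other direction, with overlapping groups. Whether the Stk11 probes lie in the deleted part is not known here, so Stk11 does not check the labels.

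Of the 9 measured members, F13a1 and Ly86 passed the threshold higher in KO cells and Lyz2 lower. Across all genes 2.48% passed it higher and 2.96% lower (5.44% in all), and since the set was chosen with this contrast known, nothing is read from the count. Arrays of the 2 genotypes did not overlap for F13a1, Ly86, Csf1r, Irf8 and Igsf6, with KO above WT, and for Lyz2, with KO below. Across all genes the groups did not overlap in 24.1% (11.4% with KO above and 12.7% with KO below). The members' median difference was 0.34, with 7 positive and 2 negative. In bulk samples, fewer cells of a type and less RNA per cell cannot be told apart.

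**Figure D1:**
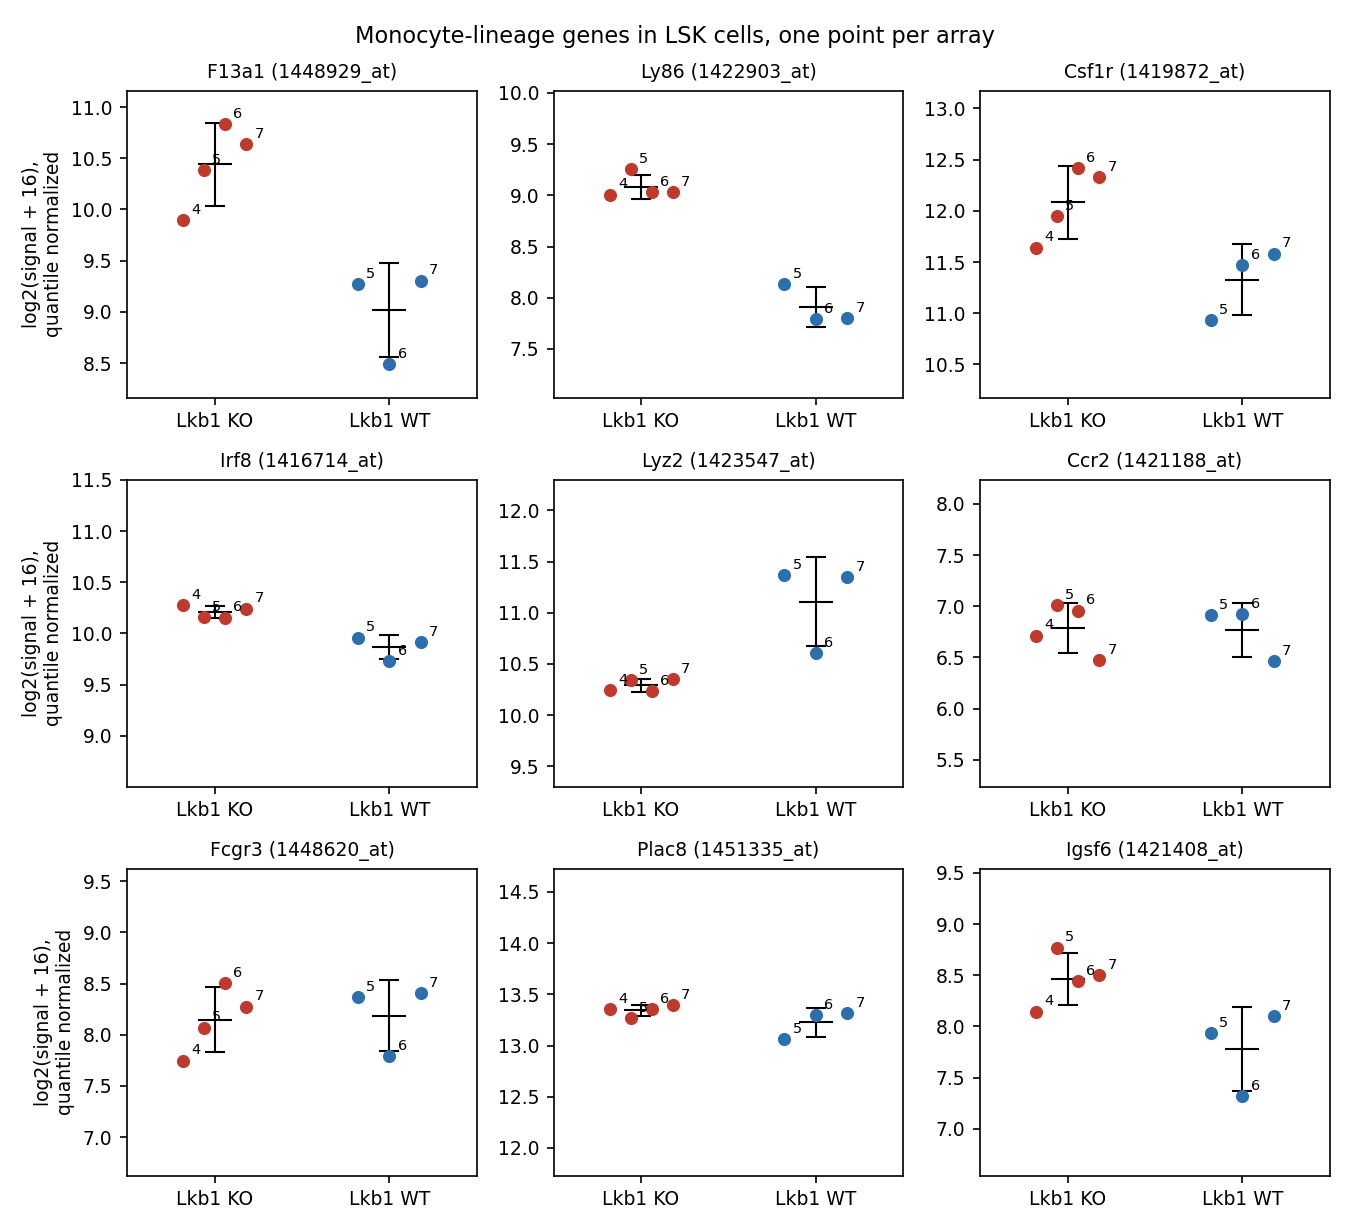
Level of the 9 measured members on each array, as log2(signal + 16) after quantile normalization, with KO arrays in red left of WT arrays in blue, array numbers beside the points, and bars for the mean and SD (n = 4 KO, 3 WT). Every panel spans the same number of log2 units; the KO points lie above all WT points for F13a1, Ly86, Csf1r, Irf8 and Igsf6, below them for Lyz2, and overlap them for Ccr2, Fcgr3 and Plac8.

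F13a1 encodes the catalytic A subunit of coagulation factor XIII, a transglutaminase that cross-links fibrin and is made by monocytes, macrophages and megakaryocytes. Its deposited signal was 1192.5, 1558, 1957.2 and 1667.2 on KO arrays 4, 5, 6 and 7, against 605.6, 307.9 and 403.1 on WT arrays 5, 6 and 7. Every KO array was above every WT array, KO 4 being the lowest of its group and WT 6 of the other. The normalized levels were 10.44 ± 0.41 in KO cells and 9.02 ± 0.46 in WT cells (SD, n = 4 and 3), a difference of 1.42 ± 0.26, or 2.68-fold. This was the third-largest increase of the 8077 genes. The fit passed the threshold without KO 4 (1.60) and missed it when any one of the other 6 arrays was left out (1.15, without WT 6, to 1.57, without WT 7). With the Actb ratio as a covariate the difference was 2.28 ± 0.39 and was not past the threshold. It also missed the threshold with no brightness filter and with replicate number as a block.

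Ly86 encodes MD-1, a secreted partner that holds the receptor CD180 at the cell surface, where it tunes responses to bacterial lipopolysaccharide in B cells and myeloid cells. Its deposited signal was 630.7, 693.4, 543.5 and 531.3 on the KO arrays, against 267.9, 184.8 and 140.2 on the WT arrays. The lowest KO signal was above the highest WT signal. After normalization, the level was 9.08 ± 0.12 in KO cells and 7.91 ± 0.20 in WT cells (SD), a difference of 1.17 ± 0.12, or 2.25-fold, with the smallest SE relative to its size among the members. Leaving out any one array gave 1.11 to 1.29, past the threshold in 7 of 7 fits. With the Actb ratio as a covariate the Ly86 difference was 1.39 ± 0.23 and missed the threshold. With replicate number as a block it was 1.20 ± 0.10 and also missed it.

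Csf1r had 3 probe sets that differed in brightness. The brightest read 3890.4, 4457.3, 5809.3 and 5491.1 on the KO arrays, against 1904.5, 2694.4 and 2050.9 on the WT arrays, with no overlap. Its normalized levels were 12.08 ± 0.36 in KO cells and 11.33 ± 0.34 in WT cells (SD), a difference of 0.75 ± 0.22. The second probe set read 876.6, 683, 1235.5 and 879.6 on the KO arrays, against 321.2, 436.8 and 303.4 on the WT arrays, and differed by 0.91, again with no overlap. The dimmest read 116.2 to 137 on KO arrays and 64.9 to 111.5 on WT arrays, and its normalized levels overlapped, with a difference of 0.24.

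Irf8 had 2 probe sets. The brighter read 1554.7, 1331.7, 1201.9 and 1262.1 on the KO arrays, against 972.1, 750.6 and 621.7 on the WT arrays. The normalized levels were 10.21 ± 0.06 in KO cells and 9.87 ± 0.12 in WT cells (SD), a difference of 0.34 ± 0.09 with no overlap. The dimmer read 176.3 to 253.7 on KO arrays and 76.9 to 200.1 on WT arrays, and differed by 0.40 with overlapping groups.

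Igsf6, an immunoglobulin-family surface protein found on monocytes and dendritic cells, read 341.8, 490.5, 350.8 and 364.5 on the KO arrays, against 233.7, 130.4 and 172.5 on the WT arrays. The groups did not overlap, and the closest pair after normalization was KO 4 (8.15) and WT 7 (8.10). The difference was 0.68 ± 0.21, and 1.26 with the Actb covariate. Scaled as deposited, where the median of all genes was 0.34, Csf1r was at 1.14, Irf8 at 0.78 and Igsf6 at 1.07, each past the threshold that it missed after normalization.

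Lyz2, encoding the lysozyme of macrophages and granulocytes, was the one member whose KO arrays all lay below the WT arrays. Its deposited signal was 1523.6, 1511.7, 1269.4 and 1362.2 on the KO arrays, against 2582.3, 1408.1 and 1741.5 on the WT arrays. WT 6 lay within the KO range as deposited and above all KO arrays once normalized. The normalized levels were 10.29 ± 0.06 in KO cells and 11.11 ± 0.43 in WT cells (SD), a difference of -0.81 ± 0.18. Without WT 6 the difference was -1.05 and passed the threshold, and it missed it when any other single array was left out (-0.83 to -0.68). With the signals scaled as deposited it was -0.39, with overlap, beside a median of 0.34 over all genes, and with the Actb covariate -0.52. Neutrophils also make lysozyme, and 13 of 14 tested mature neutrophil genes were lower in KO cells, as given below. The Lin- gate is meant to remove mature myeloid cells, and the part of neutrophils in the Lyz2 result was not tested.

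Ccr2, Fcgr3 and Plac8 overlapped between genotypes. For Ccr2, the receptor of CCL2, the brightest of 3 probe sets read 110.8, 125.6, 113.2 and 76.6 on the KO arrays, against 107.8, 96.2 and 49.5 on the WT arrays. Its difference was 0.02 ± 0.17, and the other 2 probe sets were below the brightness filter. Of these, one was above the background of the absent-transcript controls (13.64) on 3 of 4 KO and 2 of 3 WT arrays, and the other on none.

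Fcgr3, a low-affinity receptor for IgG, read 250.8, 289.5, 367 and 309.9 on the KO arrays, against 320.4, 184.8 and 215.5 on the WT arrays. The difference was -0.04 ± 0.21, and its sign turned with the scaling: 0.34 as deposited and 0.08 with median centring. Plac8, a gene of myeloid progenitors, read 11684.8, 10660, 10854.5 and 11061.8 on the KO arrays, against 8287, 10090.5 and 8206.2 on the WT arrays, and differed by 0.12 ± 0.10. The deposited ranges of Plac8 did not overlap, while the normalized ones did.

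**Figure D2:**
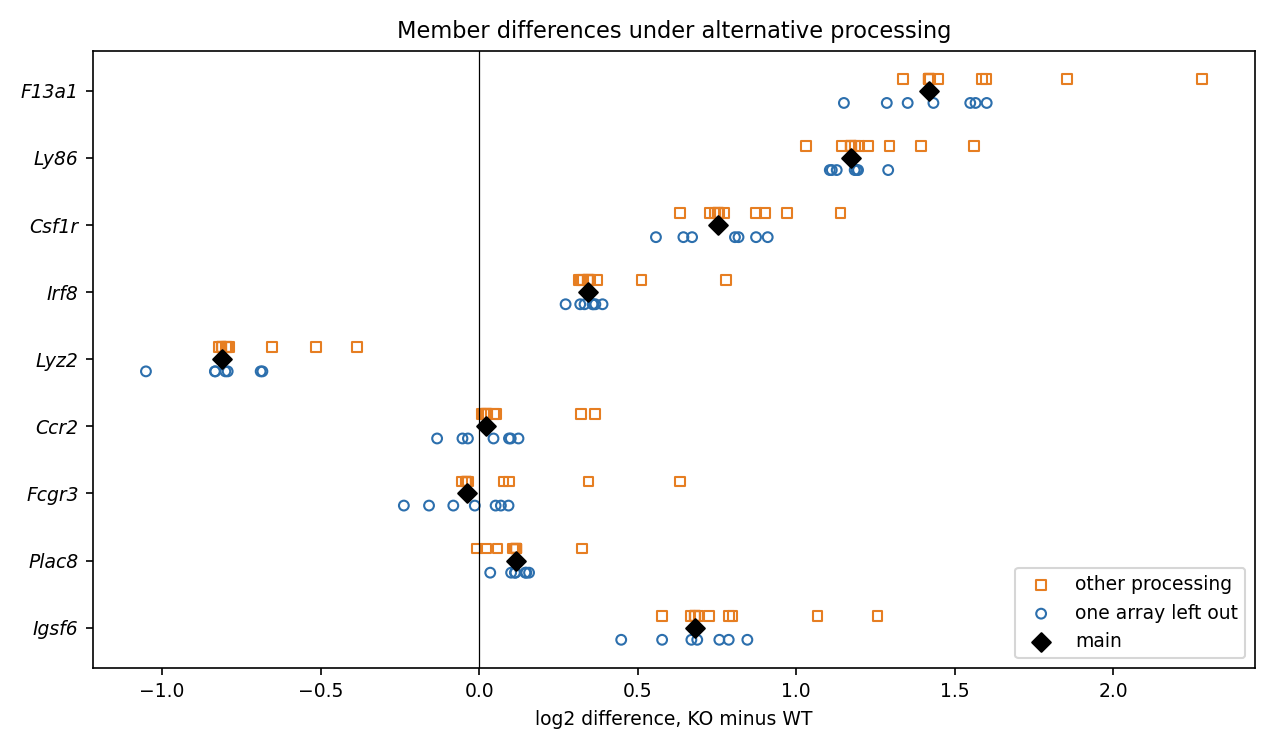
Log2 difference, KO minus WT, of each measured member as reported (black diamonds), under other processing choices (orange squares) and with 1 array left out (blue circles). F13a1, Ly86, Csf1r, Irf8 and Igsf6 stay right of 0 and Lyz2 left of 0 in all 20 alternatives, while points of Ccr2, Fcgr3 and Plac8 fall on both sides.

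The genes that work with the members were taken as 9 lists holding 129 genes, of which 114 had a probe set and 87 were tested. Of the 87, 1 was higher and 6 were lower in KO cells, and their median difference was -0.06, beside -0.02 over all genes. At an unadjusted p of 0.05, 31 of the 87 passed, beside 2046 of all 8077 genes (limma). The lists were made with earlier results of these data known. Scaled as deposited, 17 passed; Fn1 (-1.38), Lgals3 (-0.71), Adgre4 (-0.67) and Clec4e (1.01) kept their calls, and Lyz1 (-0.27), Clec4a2 (-0.51) and Lst1 (-0.20) lost theirs. With the Actb ratio as a covariate none of the 87 passed, as was so for all genes (limma; 713 genes at an unadjusted p of 0.05), with Fn1 at -1.12 and Clec4a2 at -0.49.

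In the receptor system of Ly86, none of 8 tested genes passed the threshold (limma; 0 at an unadjusted p of 0.05 as well). CD180, the receptor that MD-1 binds, read 215.5 to 233.9 on KO arrays and 131.7 to 239.8 on WT arrays, a difference of -0.13 ± 0.11 (adjusted p = 0.514, limma). Tlr4, the lipopolysaccharide receptor, differed by -0.08 ± 0.11 (adjusted p = 0.715, limma). Cd14, which presents lipopolysaccharide to it, differed by 0.45 ± 0.21 (adjusted p = 0.218, limma).

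Among the transglutaminases and proteins that factor XIII acts on, 1 of 6 tested genes passed. Fn1, the matrix protein fibronectin and a factor XIII substrate, read 108.3, 105.4, 144.7 and 117.3 on the KO arrays, against 514.2, 252.8 and 280.2 on the WT arrays. It fell by 1.75 ± 0.21 on the log2 scale (adjusted p = 0.011, limma) and passed the threshold in 7 of 7 fits that left out an array. Tgm2, tissue transglutaminase, differed by -0.53 ± 0.15 (adjusted p = 0.08, limma). The 3 fibrinogen genes Fga, Fgb and Fgg were not above background on any array.

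For the ligands and partners of CSF1R, none of 8 tested genes passed (limma; 2 at an unadjusted p of 0.05). Csf1, a ligand, read 84.3 to 112.5 on KO arrays and 35.5 to 69.4 on WT arrays, a difference of 0.46 ± 0.13 with no overlap (adjusted p = 0.073, limma). Il34, the other ligand, was not above background on any array. The list's median was 0.07, with 7 positive differences and 1 negative. The negative one, Csf2ra, was the largest in size, at -0.55 ± 0.17 (adjusted p = 0.0974, limma), with overlapping groups.

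Of 15 tested transcription factors that act with IRF8 or on the choice between monocyte, dendritic and neutrophil fates, none passed (limma; 6 at an unadjusted p of 0.05), and their median difference was -0.19. Spi1, which encodes PU.1, differed by 0.03 ± 0.16 (adjusted p = 0.94, limma). Klf4, needed for monocyte formation, differed by -0.23 ± 0.25 (adjusted p = 0.596, limma).

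None of 3 tested chemokine receptor partners passed (limma; 1 at an unadjusted p of 0.05), and their median difference was -0.11. Cx3cr1, a receptor of patrolling monocytes, was the 1 positive gene, at 0.57 ± 0.20 (adjusted p = 0.124, limma). The other 2 were negative, Ccr1 at -0.11 ± 0.27 and Cxcr4 at -0.46 ± 0.20 (adjusted p = 0.833 and 0.203, limma). None of 5 tested Fc receptor partners passed (limma; 2 at an unadjusted p of 0.05). Fcgr2b, the inhibitory IgG receptor, read 664.3 to 801.3 on KO arrays and 341.8 to 509.9 on WT arrays, a difference of 0.29 ± 0.08 (adjusted p = 0.0678, limma). It was the 1 positive gene of this list, against 4 negative, and the list's median was -0.09. Inpp5d was at -0.37 ± 0.11 (adjusted p = 0.0935, limma), with KO below WT and no overlap.

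Of 11 tested lysozyme and phagocyte enzyme genes, 2 fell. Lyz1, the lysozyme of Paneth cells, read 5358.5 to 6015.5 on KO arrays and 6448.1 to 8209.6 on WT arrays, a difference of -0.58 ± 0.11 (adjusted p = 0.0304, limma). Lyz1 and Lyz2 are near-identical copies side by side on chromosome 10, and their probe sets may share signal. Lgals3, the lectin galectin-3, read 248.4 to 379.9 on KO arrays and 381 to 625.1 on WT arrays, a difference of -1.12 ± 0.22 (adjusted p = 0.0283, limma). Each of the 2 calls held in 1 of 7 fits that left out an array.

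Clec12a is an inhibitory C-type lectin, and 11 tested genes were listed with it: myeloid C-type lectins, the phosphatase genes Ptpn6 and Ptpn11, and other paired or inhibitory receptors such as Cd33 and Pirb. Of these, 1 rose and 1 fell, both C-type lectins. Clec4e, which encodes the mycobacterial glycolipid receptor Mincle, read 881.6 to 1085.3 on KO arrays and 334.1 to 619.8 on WT arrays, a difference of 0.59 ± 0.11 (adjusted p = 0.0252, limma). Clec4a2, an inhibitory lectin, differed by -0.86 ± 0.18 (adjusted p = 0.0338, limma). The calls held in 1 and 2 of 7 fits that left out an array.

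Among 20 other tested monocyte genes, 2 fell and none rose. Lst1 differed by -0.64 ± 0.11 (adjusted p = 0.0245, limma; past the threshold in 2 of 7 fits that left out an array). Adgre4, an adhesion receptor of macrophages, differed by -0.89 ± 0.20 (adjusted p = 0.0412, limma; 0 of 7). Ms4a6c, a gene of monocytes, had the largest positive difference, 0.66 ± 0.31 (adjusted p = 0.228, limma), with overlapping groups. Coro1a (-0.71 ± 0.18, adjusted p = 0.0545, limma) and Cd300lf (-0.60 ± 0.16, adjusted p = 0.0639, limma) missed the threshold, with KO below WT and no overlap. Of the 20 differences, 7 were positive and 13 negative, with a median of -0.19. Groups did not overlap for 2 genes with KO above and 7 with KO below.

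**Figure D3:**
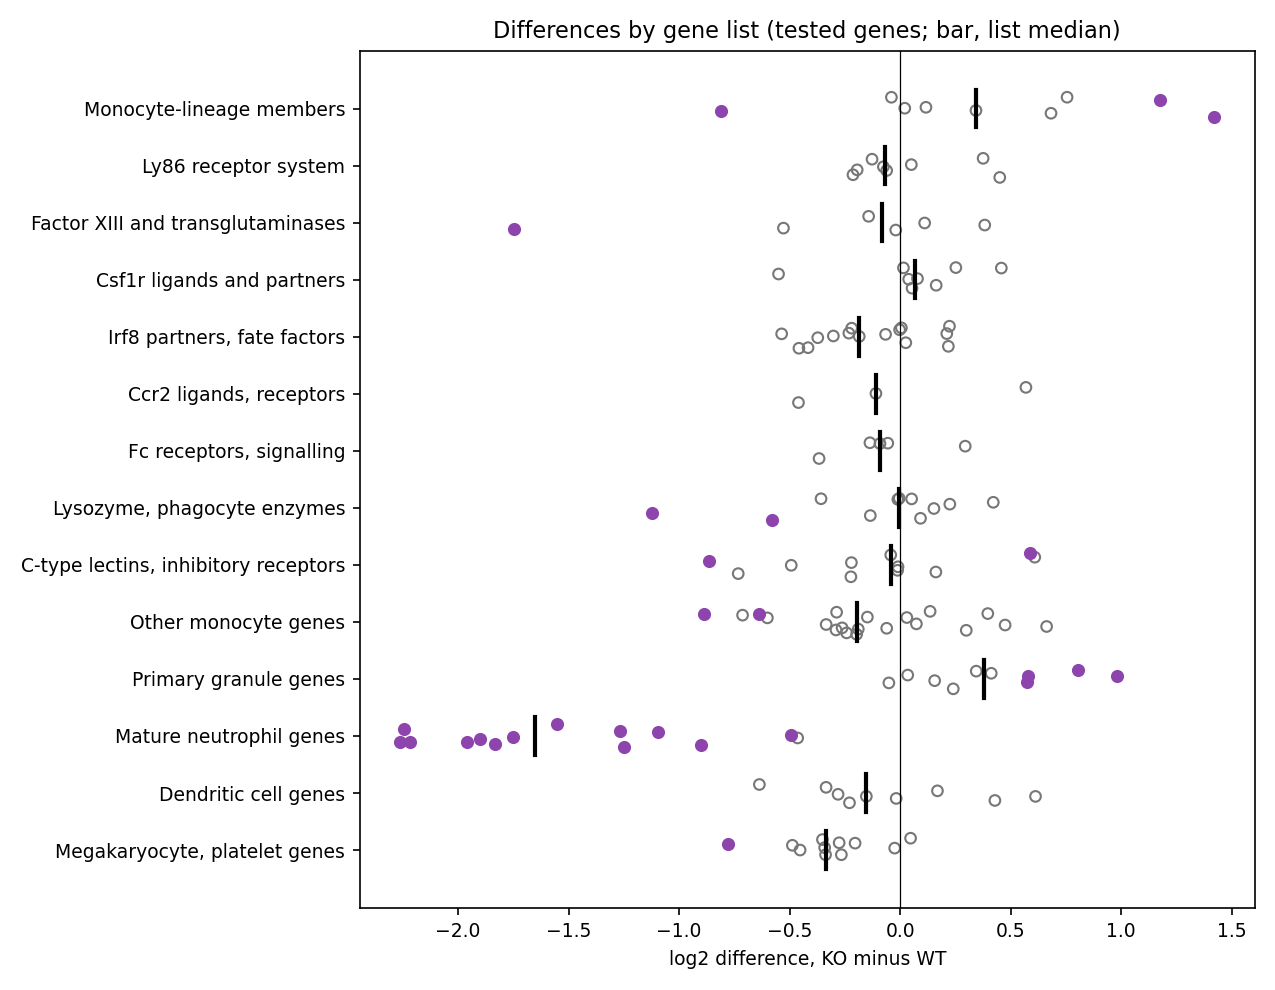
Log2 difference, KO minus WT, of each tested gene in the member set, the 9 partner lists and 4 marker lists of other cell types; filled points passed the threshold (adjusted p of 0.05, limma) and black bars are list medians. The members, chosen with this contrast known, have a median of 0.34. The medians of the 9 partner lists run from -0.19 to 0.07, and the mature neutrophil genes lie to the left with a median of -1.65.

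Markers of other cells that an LSK sort could hold were read on the same arrays, as sums of normalized signal. Mature neutrophil genes had a summed normalized signal of 14360 to 18170 on KO arrays and 36510 to 49410 on WT arrays, and 13 of 14 were lower in KO cells. Genes of primary granules, made by granulocyte-monocyte progenitors, summed to 45440 to 50950 on KO arrays and 37630 to 40820 on WT arrays. Of 10 tested, 4 rose, namely Cst7 (0.98 ± 0.11, adjusted p = 0.0106), Ms4a3 (0.80 ± 0.15, 0.0252), Nkg7 (0.58 ± 0.10, 0.023) and Ctsg (0.57 ± 0.12, 0.0329), by limma. With any 1 array left out, 1 to 3 genes of this list and 8 to 12 of the neutrophil list passed.

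Megakaryocyte and platelet genes, a second source of F13a1, summed to 3501 to 5034 on KO arrays and 6161 to 6413 on WT arrays, and 1 of 11 was lower (Plek, -0.78) and none higher. Plek and Pf4 make up most of this sum. The list's median was -0.34, and 0.01 with the signals scaled as deposited, and the part of these cells in the F13a1 result was not tested. Genes of dendritic cells, which also express Irf8, summed to 4402 to 5561 on KO arrays and 5402 to 5711 on WT arrays, and none of 9 passed (limma; 4 at an unadjusted p of 0.05). These sums overlapped and were mostly Flt3, a receptor that LSK progenitors express too, and the list's median was -0.15, and 0.27 with the signals scaled as deposited. Resident macrophage genes summed to 756.8 to 887 on KO arrays and 959.6 to 1115 on WT arrays, with 1 of 5 lower (Slc40a1, -0.82) and Marco not above background. B, T and NK cell genes summed to 1970 to 5718 on KO arrays and 2817 to 7570 on WT arrays, with none of 5 passing (limma; 1 at an unadjusted p of 0.05) and Cd79a, Pax5, Cd3e and Cd3g not above background. The part of neutrophil, primary granule and LSK-gate genes in the members' differences was not tested.

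Genes of the LSK gate and of stem cells summed to 14500 to 16260 on KO arrays and 20090 to 21110 on WT arrays, with 4 of 14 lower (Hlf, Pdzk1ip1, Myct1 and Kit). Their median was -0.34, and 0.01 with the signals scaled as deposited, where none of the 4 passed (limma) and Kit stood at 0.01. With 1 array left out, the calls of Hlf and Pdzk1ip1 held in 7 of 7 fits, that of Myct1 in 1 and that of Kit in 0. Erythroid genes summed to 3765 to 4868 on KO arrays and 5266 to 6852 on WT arrays, with 1 of 10 higher (Hba-a2) and 1 lower (Ermap). Hba-a2 was the 1 positive difference, against 9 negative. The list's median was -0.35, and -0.04 with the signals scaled as deposited. With 1 array left out, the call of Hba-a2 held in 0 of 7 fits and that of Ermap in 4. The member set itself, with 9 genes, summed to 18030 to 21320 on KO arrays and 15620 to 18230 on WT arrays, and these ranges overlapped. Plac8, at a normalized level of 13.34 in KO and 13.23 in WT cells, and Csf1r make up most of this sum.

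F13a1 and Ly86 were set against the genes around them, as a description, since both were chosen with this contrast known. In the reference, 5 genes lie in the span from F13a1 to Ly86, counting any inside either gene, none protein-coding and none measured. On the F13a1 side the nearest measured genes were Fars2, a mitochondrial aminoacyl-tRNA synthetase (0.24 ± 0.12, adjusted p = 0.242, limma), and Rpp40, a subunit of RNase P (0.35 ± 0.12, adjusted p = 0.114, limma). Beyond Ly86 they were Rreb1, a zinc finger transcription factor (-0.06 ± 0.10, adjusted p = 0.743, limma), and Ssr1, of the translocon (0.21 ± 0.09, adjusted p = 0.169, limma). None of the 9 tested neighbours within 5 measured genes passed the threshold. Of the tested genes among the 2 nearest measured on each side of the other members, only Lyz1 did.

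**Figure D4:**
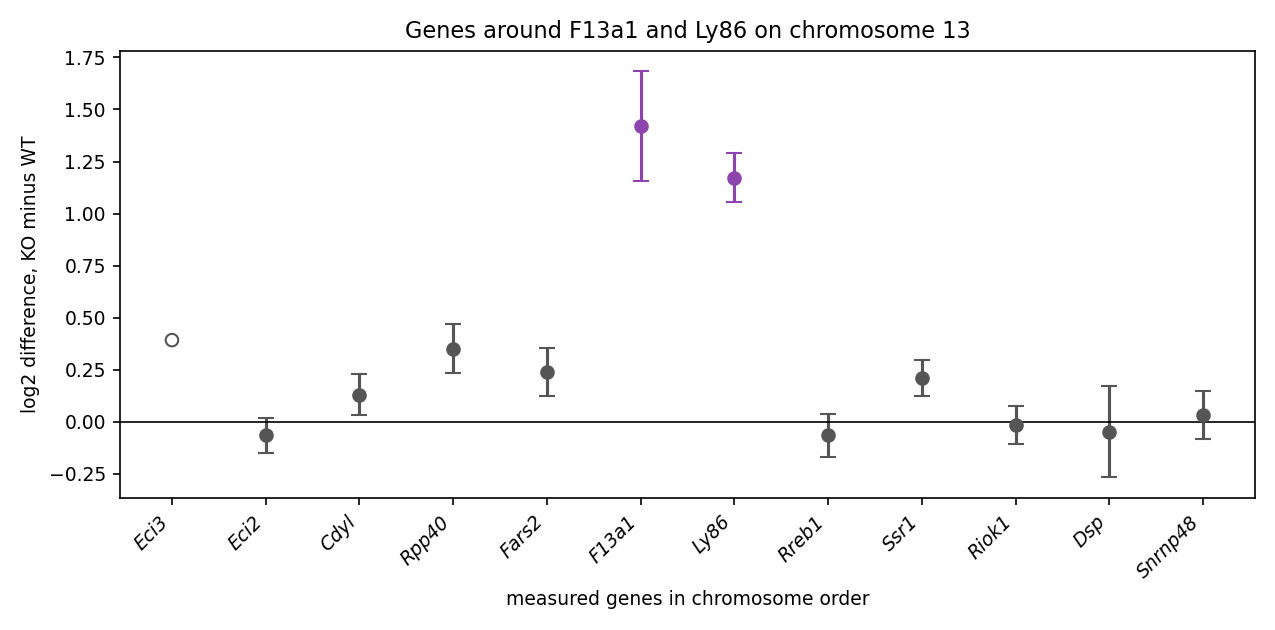
Log2 difference, KO minus WT, with its SE, for the measured genes around F13a1 and Ly86 (purple) on chromosome 13, in chromosome order and without distances; the open point, Eci3, was below the brightness filter. F13a1 (1.42) and Ly86 (1.17) stand above every neighbour shown, whose differences run from -0.06 to 0.39. Both genes were chosen with this contrast known, so the gap to their neighbours is a description.

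The genes whose levels followed F13a1 and Ly86 most closely over the 7 arrays were found by Pearson correlation with the 8076 other genes tested, a description in which the arrays share the genotype difference. For F13a1 they were Cmtm3 (0.993), Tmem119 (0.984), C1qbp (0.983), Bsg (0.982) and Ostc (0.982). With each genotype's mean removed, Cmtm3 stood at 0.986 and the other 4 at 0.916 to 0.942. For Ly86 they were Rad54l (0.992), Dhx9 (0.989), Ndufc1 (0.988), Strap (0.987) and Acp1 (0.985), and these stood at 0.719 to 0.921 within genotypes. No gene was among the 5 for both. The genes were picked as the highest of 8076 correlations over only 7 arrays. High values follow in part from that picking, and the within-genotype values of the same genes are not separate support. F13a1 and Ly86 correlated with each other at 0.895 over the 7 arrays and at 0.275 within genotypes.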

How the data were processed

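RNA of 7 samples was measured on Affymetrix arrays, 1 per sample. The table the authors deposited holds 1 linear signal intensity per probe set and array; the submitters' processing notes name MAS5, and for its settings and version the sources used here give nothing. Of 22690 probe sets, 64 were controls, 20380 had 1 gene symbol in the platform annotation, 691 had several and 1555 had none; 20351 matched the GRCm38.p6 gene table. The labels name the 430 2.0 array, although the table's size is that of a smaller design. No detection calls were used.

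Intensities were quantile normalized over non-control probe sets and analysed as log2(signal + 16), where a fold understates the change of dim genes. Probe sets with a mean above the 40th percentile were tested, and a gene was its brightest probe set with 1 symbol. KO was compared with WT over all 7 arrays with limma 3.58.1 in R 4.3.3 (lmFit, eBayes, 5 residual degrees of freedom), two-sided, p-values being adjusted over all 8077 genes by Benjamini-Hochberg and called at 0.05. The number of arrays limits the precision. Background was the 95th percentile (13.64) of 189 readings of 27 control probe sets for absent bacterial transcripts. On data simulated from this comparison over 8098 genes, 88.6% of genes changed by 1 log2 unit and 37.1% of those changed by 0.5 were recovered, with 6 false calls among 120. The simulated noise was independent between probe sets and held no brightness or Actb difference between genotypes. These rates therefore do not give the error rate of the real calls.

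The members and lists were chosen with earlier results of these data known. Named were all members with every probe set, Stk11, the partner genes (always those past the threshold), up to 4 genes of lowest p in other lists, 5 measured neighbours on each side of F13a1 and Ly86 and 2 of other members, and the 5 genes most correlated with each of these 2. Alternatives were the pseudocount (1, 64), scaling, brightness filter, probe set rule, prior trend, array weights, replicate number as a block, a covariate for the Actb 3′ to 5′ ratio, and each array left out. The labels do not say whether the numbers 5, 6 and 7 shared by KO and WT pair the samples. Deviations of same-numbered arrays correlated at 0.0292, 0.0988 and 0.0505. These values cannot settle the pairing, because differently numbered arrays were not compared.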

Additional observations from a re-analysis of the deposited data

Results flagged for a closer look

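Among 21 sets of 4 KO arrays examined for the members and the partner genes past the threshold, 1 held an array that stood apart from the other 3. It was the Ly86 level on KO 5, at 9.26 on the normalized log2 scale, while the other KO arrays lay between 9.01 and 9.03. The gap was a share of 0.893 of the group's range, above Dixon's 95% critical value for 4 samples. Chance alone gives such a result in about 1 in 20 groups. Without KO 5 the Ly86 difference was 1.11, against 1.17 with it.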

How the results depend on the processing

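F13a1, Ly86, Csf1r, Irf8, Igsf6 and Lyz2 kept their direction in all 20 alternatives. F13a1 passed the threshold in 11, Ly86 in 18, Lyz2 in 8, Irf8 in 5, Csf1r in 4 and Igsf6 in 3. The main counts were 200 genes higher, 239 lower, 3 members and 7 partner genes. As deposited, with the median of all genes at 0.34, these were 1372, 43, 5 and 17, and 97% of calls were higher, against 45.6% as reported; with median centring they were 545, 166, 6 and 10 (76.7% higher). A pseudocount of 64 gave 326, 374, 5 and 11. A pseudocount of 1 gave 172, 199, 2 and 6, and cyclic loess 189, 233, 3 and 7. No filter gave 27, 47, 1 (Ly86) and 2, and a filter at the 60th percentile 357, 358, 4 and 10. A prior trend gave 444, 442, 6 and 14. Testing every probe set gave 252, 228, 2 and 6; the mean of a gene's probe sets 182, 197, 3 and 6; array weights 164, 190, 3 and 6. The replicate block gave 0, 1, 0 and 0 (limma; 1697 genes at an unadjusted p of 0.05), and the Actb ratio as a covariate 0, 0, 0 and 0 (713). Whether the shared numbers pair the samples is not known here. Leaving out 1 array gave 8 (without KO 7) to 76 (without KO 6) higher, 35 (without WT 7) to 119 (without KO 6) lower, 1 to 2 members and 1 to 4 partner genes.

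For single lists, the block and the covariate gave 0 calls in each. Over the other settings, and then with 1 array left out, mature neutrophil genes had 8 to 13 (8 to 12) of 13 calls, primary granule genes 1 to 8 (1 to 3) of 4, LSK and stem cell genes 0 to 7 (2 to 3) of 4, with 6 at a pseudocount of 64 and the 60th percentile and 2 without a filter, mast cell genes 0 to 5 (0) of 2, with 3 and 4 in between, and erythroid genes 1 to 4 (0 to 2) of 2. Of the partner lists, other monocyte genes had 1 to 5 (0 to 2) of 2, lectins 0 to 3 (0 to 2) of 2, phagocyte enzymes 0 to 3 (0 to 2) of 2, transglutaminase partners 1 to 2 (1 to 2) of 1, and the Ly86, Csf1r, transcription factor, chemokine and Fc lists 0 to 2 (0). Dendritic genes had 0 to 2 (0), and macrophage and megakaryocyte genes 0 to 1 (0 to 1) of 1. Primary granule genes numbered 7 as deposited, neutrophil genes 10 there. None of the causes was tested beyond the setting itself.

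Differences that changed sign were small under most settings. As deposited, Kit was at 0.012, Fcgr3 at 0.34, Dsp at 0.15, Eci2 at 0.32, Riok1 at 0.42 and Rreb1 at 0.36. With median centring, Fcgr3 was at 0.077, Eci2 at 0.050, Riok1 at 0.15 and Rreb1 at 0.094. With the block, Fcgr3 was at 0.094 and Dsp at 0.081. With the Actb covariate, Fcgr3 was at 0.63, Dsp at 0.39, Cdyl at -0.061 and Plac8 at -0.0058. With the mean of probe sets, Riok1 was at 0.026, Rreb1 at 0.043 and Ssr1 at -0.12. Leaving out 1 array gave Rreb1 -0.13 to 0.015, Dsp -0.21 to 0.10, Fcgr3 -0.24 to 0.093, Riok1 -0.065 to 0.023, Ccr2 -0.13 to 0.12 and Snrnp48 -0.064 to 0.11.

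Precision is limited by 7 arrays, by RNA amplified from about 10 ng, and by overall brightness and the Actb ratio, which did not overlap between genotypes. Probe sets near 13.64, the background, carry little information, and Clec12a was not measured.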

Other observations

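Mast cell and basophil genes were higher in KO cells in their median. All 7 tested genes had positive differences, with a median of 0.58, and 2 rose at an adjusted p of 0.05 (limma): Cpa3, a protease of mast cell granules, at 0.58 ± 0.12 (adjusted p = 0.0358), and Ms4a2, the beta chain of the IgE receptor, at 0.63 ± 0.12 (adjusted p = 0.0298). Neither call held when any one of the 7 arrays was left out. Their summed normalized signal was 2843 to 3746 on KO arrays and 2073 to 2158 on WT arrays.

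Within each genotype, the quantile-normalized level of Fcgr3 followed that of F13a1, a pair chosen after its values were seen among all pairs of members. With genotype means removed the Pearson correlation was 0.995 over the 7 arrays. KO 4 was the lowest and KO 6 the highest KO array for both genes, and WT 6 was the lowest and WT 7 the highest WT array for both. In the deposited signals, WT 5 was the highest WT array for both instead. Over all 7 arrays without that removal the correlation was 0.392.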
